A study of Mus musculus with 12 samples.

Results

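The genes of mitosis and of the G2/M transition were examined in glomerular RNA from diabetic and nondiabetic eNOS-/- mice treated with vehicle or with arctigenin (ATG). The members are 45 gene symbols chosen for their role in cell division, and 43 of them are among the 14096 genes of the deposited tables. Kif2c and Birc5, the other 2, were not analysed here. The list was proposed after differences between diabetic and nondiabetic mice had been seen in these data, with Cdk1 first by p in vehicle-treated mice. The difference between diabetic and nondiabetic vehicle-treated mice is therefore given below as a description of the members. The difference between diabetic and nondiabetic ATG-treated mice comes from the same data, with the spread estimated over all 12 mice. It is therefore no independent test of the list.

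Per the methods of the study, glomeruli were isolated from male mice on the C57BL/6J background that lack endothelial nitric oxide synthase, and mRNA was sequenced. By their labels, the 12 libraries form 4 groups of 3. At 8 weeks of age, 6 mice were made diabetic with streptozotocin at 50 mg/kg on 5 days, and the other 6 received citrate buffer. From 10 weeks after induction, ATG at 40 mg/kg per day or its vehicle, 5% DMSO, was given by gavage for 8 weeks, until 18 weeks after induction. The groups are called nondiabetic vehicle, nondiabetic ATG, diabetic vehicle and diabetic ATG. All 4 groups carry the eNOS deletion, so no wild-type glomeruli stand beside them. Each library is called a mouse below, although whether the glomeruli of several mice were joined in 1 library is not given in the sources used here, and p-values measure the spread between these libraries. The sorting of fluorescent single cells that the labels mention is absent from the methods of the study, and the libraries are treated as whole glomeruli.

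A cell that has copied its DNA enters mitosis when Cdk1, bound to cyclin B, is switched on. Condensin then packs the chromosomes, the spindle of microtubules and kinesin motors attaches to them at the centromeres, and a checkpoint holds the cell until each is attached. The anaphase-promoting complex next marks cyclin B and the guards of chromosome cohesion for destruction, after which the cell divides by cytokinesis. Most of these genes are transcribed in a burst in G2 and mitosis and are nearly silent in resting cells, so their RNA is widely used as a sign of dividing cells. In the adult glomerulus, podocytes hardly divide, whereas endothelial, mesangial and infiltrating immune cells can.

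Depth on the listed genes ran from 23.6 to 29.8 M (mega) reads in a mouse. On the linear scale, at least 83.7% of values under 2000 reads were whole multiples of 1 step per library, within 0.02 reads. Reads were inferred from that step. The values are not divided by gene length, so they are compared between mice for 1 gene and not between genes. Members had between 20 reads (Aurkb) and 1420 reads (Smc4) in a mouse. Their median SD within a group was 0.20 on the log2 scale, against 0.15 over all listed genes, and the SD exceeded that of read sampling (median 0.12) in 38 members. Nos3, the disrupted gene, had log2 values from 10.07 to 11.40 in the 12 mice, and its value does not show which exons the reads came from. Defining markers of podocytes (Nphs1, Wt1, Synpo), endothelium (Pecam1, Cdh5, Kdr) and mesangium (Pdgfrb, Itga8, Gata3) were listed with log2 values above 10 in each of the 12 mice. In bulk glomeruli, fewer cells of a type and less RNA per cell cannot be told apart. Library labels begin with a code that no other group shares, so a batch named by that code cannot be told apart from the group. Within each nondiabetic group, mouse 1 carries another code than mice 2 and 3, and without mouse 1 of both groups 38 members were called for diabetes with vehicle (13.0% of all genes) and 40 with ATG (30.6%).

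RNA of the mitotic genes was higher in the diabetic glomeruli than in the nondiabetic ones, with and without ATG, by about a doubling in the middle of the list. Among the 43 listed members, 39 were called higher and 0 lower in diabetic vehicle mice against nondiabetic vehicle mice, where 18.9% of all 14096 genes were called in either direction and 10.2% were called higher (limma, adjusted p under 0.05). The 5 members that entered the tables only through diabetic mice are among the 39, and without them 34 of 38 were called, a description of the list and not support for it. The median log2 difference was 1.00 over the members and 0.01 over all genes, and all 43 members lay above 0. Bub1, Cenpe, Smc4 and Ttk were the 4 members not called. In the ATG-treated mice, which share no mouse with that comparison, 41 members were called higher and 0 lower, against 46.7% of all genes in either direction, 25.9% higher and 20.8% lower, and without those 5 it was 36 of 38. Here the median was 1.03 over the members and 0.05 over all genes, and Cenpe and Ttk were not called. Called higher in both comparisons were 39 members, against 8.58% of all genes. The fit pools the spread of each gene over all 12 mice. The p-values of these comparisons are therefore not independent, although the comparisons share no mouse.

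The members separated the 12 mice with few exceptions. For 40 of the 43, each of the 6 diabetic mice lay above each of the 6 nondiabetic mice, which held for 13.3% of all genes. Cenpe, Smc4 and Ttk had an overlap. With vehicle alone, 42 members had all 3 diabetic mice above all 3 nondiabetic mice (23.0% of all genes did), and with ATG alone 41 did (30.5% of all genes, and 25.6% had all diabetic mice below). A difference of at least 2-fold was found for 22 members with vehicle and 23 with ATG, against 1.11% and 4.14% of all genes. The 5 members listed only through diabetic mice are counted in this paragraph, all of them among the 22. Like the counts above, these describe the list and are not support for it. Averaged over the members, the log2 value was 7.40, 7.08 and 7.27 in the nondiabetic vehicle mice, 7.12, 7.05 and 7.17 in the nondiabetic ATG mice, 8.17, 8.40 and 8.26 in the diabetic vehicle mice and 8.05, 8.31 and 8.21 in the diabetic ATG mice. The highest nondiabetic mouse thus lay well below the lowest diabetic mouse. All members together took 0.0277% ± 0.0024 (SD, n = 3) of the summed linear values in nondiabetic vehicle mice and 0.0515% ± 0.0035 (SD, n = 3) in diabetic vehicle mice. With ATG, the shares were 0.0246% ± 0.0011 (SD, n = 3) and 0.0487% ± 0.0042 (SD, n = 3).

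**Figure D1:**
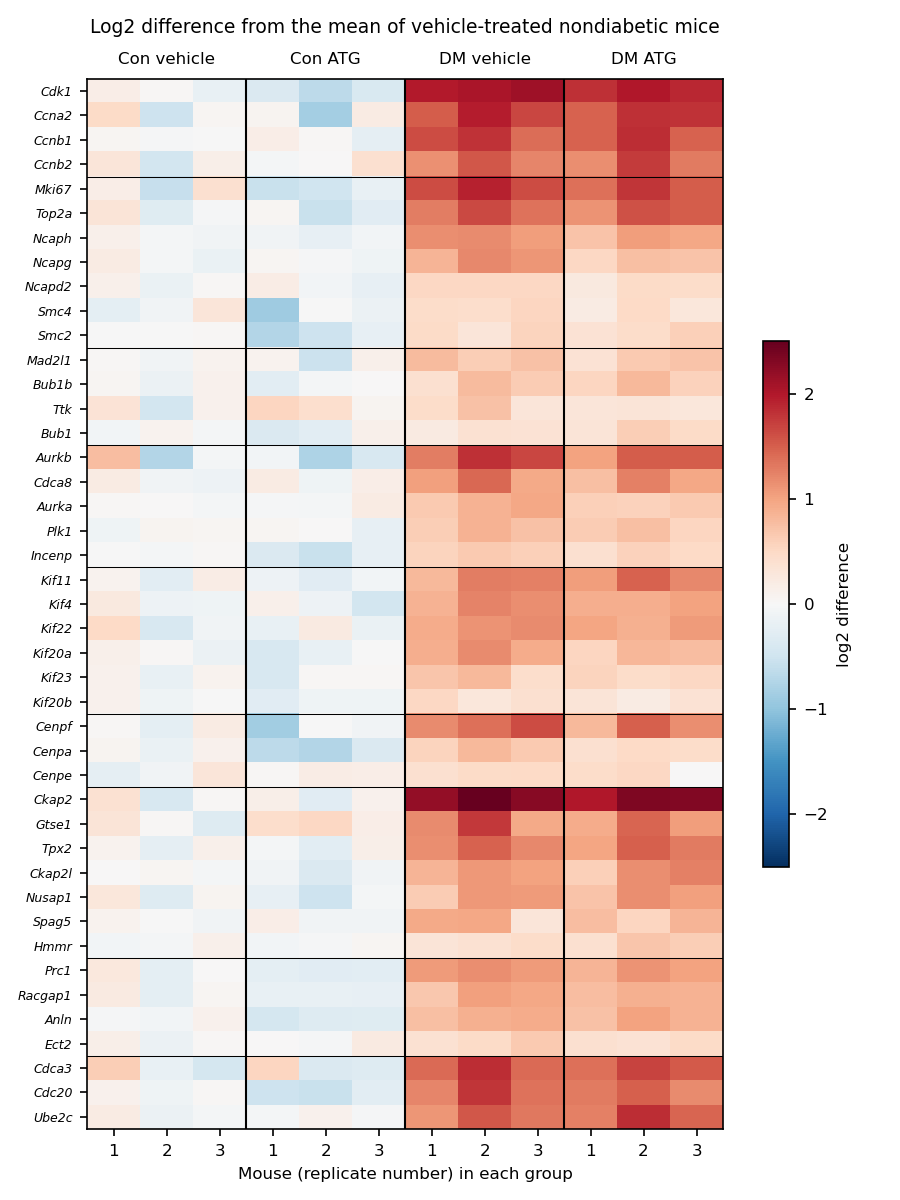
Log2 difference of each of the 43 listed members (rows, grouped by role) from the mean of the nondiabetic vehicle mice, in each of the 12 mice (columns), with red above and blue below that mean. The 6 diabetic columns are red for nearly all members, deepest for Cdk1 and Ckap2, while the nondiabetic columns stay pale, and Ttk and Cenpe overlap between diabetic and nondiabetic mice.

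A gene entered the deposited tables only if it reached 100 on the linear scale in some mouse. Ccnb1, Aurkb, Cdca8, Ckap2 and Ube2c were under it in all 6 nondiabetic mice, as were 2.16% of all listed genes. Since these 5 are listed only through the group in which they are high, their differences are given below without a p. Over the other 38 members, the median differences were 0.91 with vehicle and 0.99 with ATG. Closest to the limit was Aurkb, with a highest linear value of 141, followed by Aurka with 200.

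Cdk1, the kinase that drives entry into mitosis (chromosome 10, 69336635 to 69352912 of GRCm38), had log2 values of 6.78, 6.64 and 6.43 in the nondiabetic vehicle mice, 6.25, 5.96 and 6.23 in the nondiabetic ATG mice, 8.61, 8.67 and 8.73 in the diabetic vehicle mice and 8.45, 8.63 and 8.51 in the diabetic ATG mice. Every diabetic mouse lay above 8.4 and every nondiabetic mouse below 6.8, and the 3 diabetic vehicle mice lay within 0.12 of one another. Cdk1 was 4.15-fold higher in diabetic than in nondiabetic vehicle mice, with a log2 difference of 2.05 ± 0.12 (SE). With ATG it was 5.21-fold higher, by 2.38 ± 0.12 (SE, adjusted p = 1.04e-05), with the lowest p of all 14096 genes in limma there too. Both SEs use a spread pooled over all 12 mice, so this rank is not independent of the rank with vehicle. Ccnb1, which encodes cyclin B1, the partner of Cdk1 (chromosome 13, 100778739 to 100786486), had log2 values of 5.89, 5.82 and 5.84 in the nondiabetic vehicle mice, 6.02, 5.87 and 5.62 in the nondiabetic ATG mice, 7.49, 7.65 and 7.24 in the diabetic vehicle mice and 7.32, 7.69 and 7.32 in the diabetic ATG mice. The 6 nondiabetic mice were close together and lay apart from the diabetic mice. The log2 difference was 1.61 ± 0.16 (SE) with vehicle and 1.61 ± 0.16 (SE) with ATG. Ccnb2, which encodes the related cyclin B2, was higher by 1.31 ± 0.23 (SE) and 1.29 ± 0.23 (SE), and Ccna2, which encodes cyclin A2 of S and G2 phase, by 1.71 ± 0.29 (SE) and 1.90 ± 0.29 (SE). Exons of Ccna2 overlap those of Exosc9 on the other strand, and whether strand was used in counting is not given in the sources used here. Ccnb2 and Ccna2 were added after their values had been seen, to complete the group of 4.

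**Figure D2:**
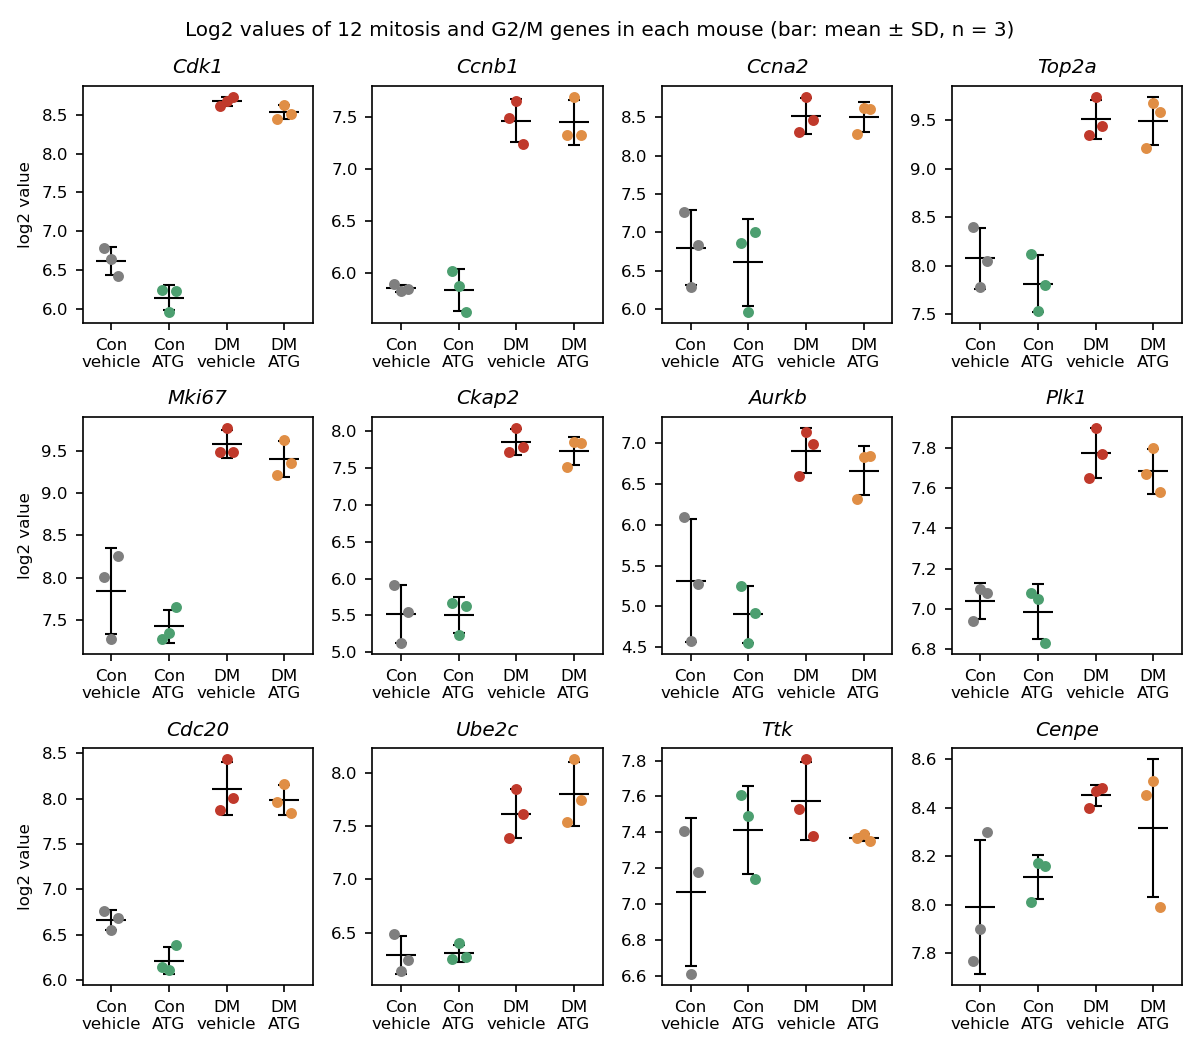
Log2 values (vertical axis, on a separate scale in each panel that does not start at 0) of 12 members in the 3 mice of each group, with the mean and SD. Con is nondiabetic and DM diabetic. Cdk1, Ccnb1, Ccna2, Top2a, Mki67, Ckap2, Aurkb, Plk1, Cdc20 and Ube2c show no overlap between diabetic and nondiabetic mice, and Ttk and Cenpe do.

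Promoters of these genes were read for motifs typical of G2 and mitosis. The members were chosen for their role in cell division, so their motif shares describe the list. Genes switched on in G2 and mitosis typically carry the cell cycle genes homology region (CHR), TTTGAA, bound by the MuvB complexes with B-Myb and FoxM1 or, in resting cells, with repressors, next to CCAAT boxes bound by NF-Y. RefSeq windows of GRCm38.p6 from 250 bases before to 50 bases after the start were at hand for 37 of the 43 members. In the stretches below, which hold the 250 bases before the start, capitals mark TTTGAA and CCAAT on either strand (TTCAAA and ATTGG when read from the other strand). Cdk1, the member with the lowest p, Top2a, Cdc20 and Ube2c are shown as members with both motifs. Ccnb1 is shown as a member without TTTGAA in its window, and Ttk as 1 of the 2 members not called for diabetes in ATG-treated mice.
Cdk1: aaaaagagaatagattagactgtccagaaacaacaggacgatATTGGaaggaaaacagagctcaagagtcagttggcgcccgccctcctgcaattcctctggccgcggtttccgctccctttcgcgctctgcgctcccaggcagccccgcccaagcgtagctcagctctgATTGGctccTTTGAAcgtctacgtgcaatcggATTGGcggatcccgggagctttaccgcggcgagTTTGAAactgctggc
Ccnb1: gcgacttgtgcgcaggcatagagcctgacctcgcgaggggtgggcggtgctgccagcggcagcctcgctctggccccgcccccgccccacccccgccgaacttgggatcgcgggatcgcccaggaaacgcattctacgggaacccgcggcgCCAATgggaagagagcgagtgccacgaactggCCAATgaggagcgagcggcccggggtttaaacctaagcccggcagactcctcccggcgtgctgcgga
Top2a: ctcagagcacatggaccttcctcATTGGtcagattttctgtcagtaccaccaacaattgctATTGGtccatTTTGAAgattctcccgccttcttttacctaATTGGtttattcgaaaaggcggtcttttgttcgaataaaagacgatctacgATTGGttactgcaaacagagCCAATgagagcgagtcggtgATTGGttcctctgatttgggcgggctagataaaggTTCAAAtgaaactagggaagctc
Cdc20: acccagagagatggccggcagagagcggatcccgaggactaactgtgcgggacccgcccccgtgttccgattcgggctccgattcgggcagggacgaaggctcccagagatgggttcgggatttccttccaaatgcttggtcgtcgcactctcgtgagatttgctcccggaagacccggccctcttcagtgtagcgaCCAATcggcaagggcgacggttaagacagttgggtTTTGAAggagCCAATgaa
Ube2c: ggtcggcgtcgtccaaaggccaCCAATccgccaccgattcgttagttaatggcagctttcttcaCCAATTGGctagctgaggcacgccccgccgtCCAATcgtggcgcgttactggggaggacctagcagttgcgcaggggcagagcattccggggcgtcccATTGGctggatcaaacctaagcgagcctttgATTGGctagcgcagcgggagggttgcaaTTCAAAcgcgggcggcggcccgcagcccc
Ttk: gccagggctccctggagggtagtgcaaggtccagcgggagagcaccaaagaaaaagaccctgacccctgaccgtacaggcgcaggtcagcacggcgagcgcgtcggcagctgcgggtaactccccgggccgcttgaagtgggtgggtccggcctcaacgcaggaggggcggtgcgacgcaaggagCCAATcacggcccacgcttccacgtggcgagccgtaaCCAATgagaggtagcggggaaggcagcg
The stretches are chr10:69352913-69353162 (minus strand) for Cdk1, chr13:100786487-100786736 (minus strand) for Ccnb1, chr11:99024190-99024439 (minus strand) for Top2a, chr4:118437344-118437593 (minus strand) for Cdc20, chr2:164769679-164769928 (plus strand) for Ube2c and chr9:83834439-83834688 (plus strand) for Ttk.

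In Cdk1, TTTGAA begins 15 and 71 bases before the start, with CCAAT, read as ATTGG, at 48, 80 and 208. In Cdc20 it begins 18 bases before the start, between CCAAT boxes at 8 and 53. Top2a holds TTCAAA at 23 and TTTGAA at 179 bases before the start, with 6 CCAAT boxes. Ube2c holds TTCAAA at 29 bases before the start and 6 CCAAT boxes, of which 1 pair on opposite strands overlaps (CCAATTGG). Ccnb1 has CCAAT boxes at 67 and 99 bases before the start and no TTTGAA. Ttk has CCAAT boxes at 28 and 65 bases before the start, and TTCAAA 8 bases after it, inside the window but outside the printed stretch.

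TTTGAA on either strand was in the windows of 30 of the 37 members (81.1%), against 14.5% of the 11151 listed genes with a window, 20.2% of all 27025 genes with one, 35.5% of 76 other mitotic genes and 16.7% of 48 genes of S phase. CCAAT was in 32 members (86.5%), against 42.5% of the listed genes, 56.6% of the other mitotic genes and 62.5% of the S phase genes. Both motifs were in 28 members (75.7%), against 5.92% of the listed genes, 23.7% of the other mitotic genes and 12.5% of the S phase genes. GCGGGAA, an E2F motif typical of S phase genes, was in 1 member (2.70%), in 9.29% of the listed genes, in 19.7% of the other mitotic genes and in 39.6% of the S phase genes. The 30 members with TTTGAA had differences with vehicle from 0.39 to 2.33 with a median of 1.02. The 7 without it (Ccnb1, Bub1, Cenpe, Nusap1, Ncaph, Mad2l1 and Gtse1) had differences from 0.34 to 1.61 with a median of 0.93. TTCGAA, also searched, was in 3 members (8.11%), namely Top2a, Bub1 and Bub1b, against 2.39% of the listed genes. Ccna2, Aurkb, Kif20a, Tpx2, Smc4 and Incenp have no window in the table. A match describes letters in a window and does not show that a factor binds there.

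Genes of chromosome structure were higher as a group, with 6 of 7 called with vehicle and 7 of 7 with ATG. Of all genes, 10.2% were called higher with vehicle and 25.9% with ATG. Mki67 encodes Ki-67, the coat of mitotic chromosomes used as a marker of dividing cells, and had log2 values of 8.01, 7.27 and 8.25 in the nondiabetic vehicle mice, 7.28, 7.34 and 7.65 in the nondiabetic ATG mice, 9.48, 9.77 and 9.48 in the diabetic vehicle mice and 9.21, 9.63 and 9.35 in the diabetic ATG mice. Diabetic mice lay above 9.2 and nondiabetic mice at 8.25 or lower, with nondiabetic vehicle mouse 2 well below the other mice of its group. The difference was 1.73 ± 0.22 (SE) with vehicle and 1.97 ± 0.22 (SE, adjusted p = 0.000206) with ATG (limma). Top2a, the topoisomerase that untangles sister chromatids, had log2 values of 8.40, 7.78 and 8.05 in the nondiabetic vehicle mice, 8.12, 7.53 and 7.80 in the nondiabetic ATG mice, 9.35, 9.74 and 9.44 in the diabetic vehicle mice and 9.21, 9.68 and 9.59 in the diabetic ATG mice. Its promoter, printed above, carries both motifs, and its lowest diabetic mouse stood 0.81 above its highest nondiabetic mouse. The difference was 1.43 ± 0.2 (SE) and 1.67 ± 0.2 (SE, adjusted p = 0.000234) with vehicle and with ATG (limma).

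Condensin, the ring that compacts mitotic chromosomes, is represented by 5 members. Ncaph, its kleisin subunit, had log2 values of 6.70, 6.53 and 6.49 in the nondiabetic vehicle mice, 6.48, 6.36 and 6.50 in the nondiabetic ATG mice, 7.74, 7.76 and 7.61 in the diabetic vehicle mice and 7.28, 7.62 and 7.54 in the diabetic ATG mice, with the groups apart and differences of 1.13 ± 0.12 (SE) with vehicle and 1.03 ± 0.12 (SE, adjusted p = 0.000245) with ATG in limma. Ncapg, a further subunit, had log2 values of 6.85, 6.60 and 6.47 in the nondiabetic vehicle mice, 6.69, 6.62 and 6.54 in the nondiabetic ATG mice, 7.48, 7.85 and 7.75 in the diabetic vehicle mice and 7.15, 7.39 and 7.35 in the diabetic ATG mice. In the diabetic ATG mice it lay below each diabetic vehicle mouse, so its difference was 1.06 ± 0.14 (SE) with vehicle and 0.68 ± 0.14 (SE, adjusted p = 0.00318) with ATG in limma. Exons of Ncapg overlap those of Lcorl on the other strand. Smc2, a core subunit that also serves condensin outside mitosis, had log2 values of 8.95, 8.95 and 8.98 in the nondiabetic vehicle mice, 8.23, 8.45 and 8.75 in the nondiabetic ATG mice, 9.44, 9.27 and 9.51 in the diabetic vehicle mice and 9.33, 9.41 and 9.56 in the diabetic ATG mice. Its 3 nondiabetic ATG mice lay below its 3 nondiabetic vehicle mice, and its diabetes difference was 0.45 ± 0.12 (SE) with vehicle and 0.96 ± 0.12 (SE, adjusted p = 0.000359) with ATG in limma. The other core subunit, Smc4, was not called with vehicle, and Ncapd2 differed by 0.51 ± 0.11 (SE) and 0.42 ± 0.11 (SE).

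The spindle checkpoint held the smallest differences of the 9 roles with vehicle, with a median of 0.56 over its 4 members. Called higher were 2 of the 4 with vehicle and 3 with ATG, against 10.2% and 25.9% of all genes. Bub1b, the checkpoint protein BubR1, had log2 values of 7.73, 7.55 and 7.79 in the nondiabetic vehicle mice, 7.42, 7.65 and 7.70 in the nondiabetic ATG mice, 8.10, 8.49 and 8.33 in the diabetic vehicle mice and 8.22, 8.51 and 8.27 in the diabetic ATG mice, without overlap between diabetic and nondiabetic mice. Its difference was 0.62 ± 0.13 (SE) with vehicle and 0.74 ± 0.13 (SE, adjusted p = 0.00157) with ATG (limma). Mad2l1 encodes Mad2, which holds back the anaphase-promoting complex, and had log2 values of 7.53, 7.42 and 7.60 in the nondiabetic vehicle mice, 7.59, 6.97 and 7.64 in the nondiabetic ATG mice, 8.30, 8.12 and 8.25 in the diabetic vehicle mice and 7.87, 8.17 and 8.22 in the diabetic ATG mice. Nondiabetic ATG mouse 2 was its lowest mouse, and the differences were 0.71 ± 0.17 (SE) and 0.69 ± 0.17 (SE, adjusted p = 0.00787) with vehicle and with ATG (limma). Bub1, the kinase that recruits the checkpoint to kinetochores, had log2 values of 7.64, 7.79 and 7.65 in the nondiabetic vehicle mice, 7.33, 7.43 and 7.82 in the nondiabetic ATG mice, 7.93, 8.09 and 8.07 in the diabetic vehicle mice and 8.02, 8.32 and 8.17 in the diabetic ATG mice, which do not overlap between diabetic and nondiabetic mice. Its difference was 0.34 ± 0.14 (SE, adjusted p = 0.102) with vehicle, not under 0.05, and 0.64 ± 0.14 (SE, adjusted p = 0.00346) with ATG (limma). Ttk, the Mps1 kinase at the head of the checkpoint, had log2 values of 7.41, 6.61 and 7.18 in the nondiabetic vehicle mice, 7.61, 7.49 and 7.14 in the nondiabetic ATG mice, 7.53, 7.81 and 7.38 in the diabetic vehicle mice and 7.37, 7.39 and 7.35 in the diabetic ATG mice. Here the groups overlapped, and the difference was 0.51 ± 0.2 (SE, adjusted p = 0.0987) with vehicle and -0.04 ± 0.2 (SE, adjusted p = 0.876) with ATG (limma), with an interval for the latter of -0.49 to 0.40.

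Of the mitotic kinases and the chromosomal passenger complex, Aurka, Plk1 and Incenp were called higher in both comparisons, and Aurkb and Cdca8 were listed through diabetic mice only. Aurkb encodes Aurora B, the kinase of that complex, and had log2 values of 6.09, 4.58 and 5.28 in the nondiabetic vehicle mice, 5.25, 4.55 and 4.92 in the nondiabetic ATG mice, 6.60, 7.14 and 6.99 in the diabetic vehicle mice and 6.32, 6.83 and 6.84 in the diabetic ATG mice. It had the fewest reads and the widest spread of the members, with a pooled SD of 0.46, and 1.51 separated the highest and lowest nondiabetic vehicle mouse. Even so, the diabetic mice lay above the nondiabetic ones, by 1.59 ± 0.34 (SE) with vehicle and 1.75 ± 0.34 (SE) with ATG (limma). Incenp, the scaffold of the same complex, had log2 values of 8.41, 8.38 and 8.45 in the nondiabetic vehicle mice, 8.06, 7.87 and 8.22 in the nondiabetic ATG mice, 8.98, 9.07 and 9.01 in the diabetic vehicle mice and 8.83, 8.99 and 8.92 in the diabetic ATG mice, and Cdca8, which encodes its subunit borealin, was higher by 1.13 ± 0.18 (SE) and 0.90 ± 0.18 (SE) in the 2 comparisons. Incenp differed by 0.60 ± 0.094 (SE) with vehicle and 0.86 ± 0.094 (SE, adjusted p = 0.000169) with ATG (limma). Aurka, the Aurora A kinase of spindle poles, had log2 values of 6.72, 6.70 and 6.65 in the nondiabetic vehicle mice, 6.67, 6.65 and 6.89 in the nondiabetic ATG mice, 7.35, 7.56 and 7.65 in the diabetic vehicle mice and 7.29, 7.27 and 7.34 in the diabetic ATG mice. Its differences were 0.83 ± 0.12 (SE) and 0.56 ± 0.12 (SE, adjusted p = 0.00315) with vehicle and with ATG (limma). Plk1, the polo kinase that acts from mitotic entry to cytokinesis, had log2 values of 6.94, 7.10 and 7.08 in the nondiabetic vehicle mice, 7.08, 7.05 and 6.83 in the nondiabetic ATG mice, 7.65, 7.90 and 7.77 in the diabetic vehicle mice and 7.67, 7.80 and 7.58 in the diabetic ATG mice. The gap between the lowest diabetic and the highest nondiabetic mouse was 0.48, and the differences were 0.74 ± 0.12 (SE) and 0.70 ± 0.12 (SE, adjusted p = 0.0011) (limma).

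Kinesins, the motors that build the spindle and the midzone, were called higher for 6 of 6 members in both comparisons. The share of all genes called higher was 10.2% with vehicle and 25.9% with ATG. Kif11, the motor that pushes spindle poles apart, had log2 values of 7.23, 6.89 and 7.34 in the nondiabetic vehicle mice, 7.02, 6.86 and 7.09 in the nondiabetic ATG mice, 7.97, 8.43 and 8.41 in the diabetic vehicle mice and 8.20, 8.62 and 8.36 in the diabetic ATG mice. Kif20a, which carries Aurora B to the midzone, had log2 values of 7.29, 7.19 and 7.02 in the nondiabetic vehicle mice, 6.76, 6.99 and 7.16 in the nondiabetic ATG mice, 8.07, 8.35 and 8.09 in the diabetic vehicle mice and 7.70, 8.00 and 7.95 in the diabetic ATG mice, and its exons overlap those of Cdc23 on the other strand. Neither gene overlapped between diabetic and nondiabetic mice. The differences were 1.12 ± 0.17 (SE) with vehicle and 1.40 ± 0.17 (SE, adjusted p = 0.000254) with ATG for Kif11, and 1.00 ± 0.14 (SE) and 0.92 ± 0.14 (SE, adjusted p = 0.000759) for Kif20a (limma). Kif20b, Kif22, Kif23 and Kif4 differed by 0.40 to 1.09 with vehicle and by 0.47 to 1.09 with ATG.

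At the centromere, Cenpf, a late G2 protein of the kinetochore, had log2 values of 6.76, 6.48 and 6.94 in the nondiabetic vehicle mice, 5.87, 6.72 and 6.64 in the nondiabetic ATG mice, 7.92, 8.10 and 8.37 in the diabetic vehicle mice and 7.54, 8.23 and 7.89 in the diabetic ATG mice. Cenpa, the histone variant that marks centromeres, had log2 values of 7.31, 7.09 and 7.35 in the nondiabetic vehicle mice, 6.60, 6.52 and 6.89 in the nondiabetic ATG mice, 7.80, 8.06 and 7.91 in the diabetic vehicle mice and 7.66, 7.75 and 7.71 in the diabetic ATG mice. Both were higher in diabetic mice without overlap, Cenpf by 1.40 ± 0.25 (SE) with vehicle and 1.48 ± 0.25 (SE, adjusted p = 0.00117) with ATG, and Cenpa by 0.67 ± 0.13 (SE) and 1.04 ± 0.13 (SE, adjusted p = 0.000287) (limma). Cenpe, the kinesin of the kinetochore, did not follow them. Its differences of 0.46 ± 0.16 (SE, adjusted p = 0.0619) with vehicle and 0.20 ± 0.16 (SE, adjusted p = 0.321) with ATG did not reach an adjusted p under 0.05 in limma, and diabetic ATG mouse 3, at 7.99, lay among the nondiabetic mice.

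Of the 7 genes of spindle assembly, 6 were called higher in each comparison, and Ckap2 was listed through diabetic mice only. Among all genes, 10.2% were called higher with vehicle and 25.9% with ATG. Ckap2, a microtubule protein of the mitotic spindle (chromosome 8, 22168152 to 22185819), had log2 values of 5.91, 5.12 and 5.54 in the nondiabetic vehicle mice, 5.67, 5.23 and 5.62 in the nondiabetic ATG mice, 7.72, 8.05 and 7.79 in the diabetic vehicle mice and 7.52, 7.86 and 7.84 in the diabetic ATG mice. With 32 to 55 reads in a nondiabetic mouse and 170 to 247 in a diabetic mouse, it had the largest difference of the members with vehicle, 2.33 ± 0.21 (SE), a factor of 5.03. With ATG the difference was 2.23 ± 0.21 (SE), a factor of 4.70. Tpx2, which activates Aurora A on the spindle, had log2 values of 7.22, 6.92 and 7.27 in the nondiabetic vehicle mice, 7.10, 6.87 and 7.28 in the nondiabetic ATG mice, 8.30, 8.62 and 8.34 in the diabetic vehicle mice and 8.13, 8.63 and 8.43 in the diabetic ATG mice and differences of 1.28 ± 0.16 (SE) and 1.31 ± 0.16 (SE, adjusted p = 0.000298) (limma). Gtse1, a microtubule protein of G2 and mitosis that also restrains p53, had log2 values of 7.18, 6.88 and 6.53 in the nondiabetic vehicle mice, 7.30, 7.38 and 7.03 in the nondiabetic ATG mice, 8.04, 8.62 and 7.80 in the diabetic vehicle mice and 7.78, 8.32 and 7.91 in the diabetic ATG mice. Its diabetes difference was 1.29 ± 0.23 (SE) with vehicle and 0.76 ± 0.23 (SE, adjusted p = 0.0211) with ATG (limma), which after Ttk is the largest gap among the members between the vehicle and the ATG comparison in that direction. Nusap1, Ckap2l, Hmmr and Spag5 differed by 0.39 to 0.97 with vehicle and by 0.58 to 1.23 with ATG.

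Cytokinesis genes were called higher for 4 of 4 members in each comparison, against 10.2% of all genes with vehicle and 25.9% with ATG. Prc1, which bundles microtubules in the midzone, had log2 values of 8.08, 7.58 and 7.82 in the nondiabetic vehicle mice, 7.57, 7.54 and 7.56 in the nondiabetic ATG mice, 8.89, 8.98 and 8.88 in the diabetic vehicle mice and 8.67, 8.95 and 8.82 in the diabetic ATG mice, and its exons overlap those of Rccd1 on the other strand. Anln, which encodes the actin-binding protein anillin of the cleavage furrow, had log2 values of 7.76, 7.71 and 7.88 in the nondiabetic vehicle mice, 7.35, 7.46 and 7.48 in the nondiabetic ATG mice, 8.54, 8.66 and 8.71 in the diabetic vehicle mice and 8.51, 8.79 and 8.65 in the diabetic ATG mice, the narrowest spread of the members with a pooled SD of 0.098. Neither gene overlapped between the diabetic and nondiabetic mice. Prc1 differed by 1.09 ± 0.12 (SE) with vehicle and 1.26 ± 0.12 (SE, adjusted p = 0.00011) with ATG, and Anln by 0.86 ± 0.098 (SE) and 1.22 ± 0.098 (SE, adjusted p = 5.42e-05) (limma). Racgap1 and Ect2, partners in positioning the furrow, differed by 0.89 and 0.50 with vehicle and by 1.03 and 0.34 with ATG.

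Of the 3 partners of the anaphase-promoting complex, Cdc20 and Cdca3 were called higher in each comparison, and Ube2c was listed through diabetic mice only. For all genes, the share called higher was 10.2% with vehicle and 25.9% with ATG. Cdc20, the activator of that complex, had log2 values of 6.76, 6.55 and 6.68 in the nondiabetic vehicle mice, 6.15, 6.11 and 6.39 in the nondiabetic ATG mice, 7.88, 8.44 and 8.01 in the diabetic vehicle mice and 7.96, 8.16 and 7.84 in the diabetic ATG mice. Ube2c, the ubiquitin-conjugating enzyme that works with it, had log2 values of 6.49, 6.14 and 6.24 in the nondiabetic vehicle mice, 6.25, 6.40 and 6.27 in the nondiabetic ATG mice, 7.39, 7.85 and 7.61 in the diabetic vehicle mice and 7.54, 8.13 and 7.74 in the diabetic ATG mice. In both, diabetic mice lay clear of the nondiabetic mice, at 7.39 or above. Cdc20 differed by 1.45 ± 0.16 (SE) with vehicle and 1.77 ± 0.16 (SE, adjusted p = 8.36e-05) with ATG, and Ube2c by 1.32 ± 0.17 (SE) and 1.5 ± 0.17 (SE) (limma). Exons of Cdc20 overlap those of Elovl1 and exons of Ube2c those of Tnnc2, on the other strand, as Plk1 does with Gm44985. Cdca3, a trigger of mitotic entry through the destruction of Wee1, differed by 1.57 ± 0.3 (SE) and 1.59 ± 0.3 (SE).

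Set side by side, the diabetes difference of a member was much the same with and without ATG. The differences were within 0.25 of each other for 29 members, were larger with ATG for 25 and with vehicle for 18, and their median gap (ATG minus vehicle) was 0.07. Across the 43 members, which share their libraries, Pearson's r between the comparisons was 0.901 and Spearman's rho 0.881, against 0.845 and 0.766 across all genes, and the comparisons share no mouse.

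**Figure D3:**
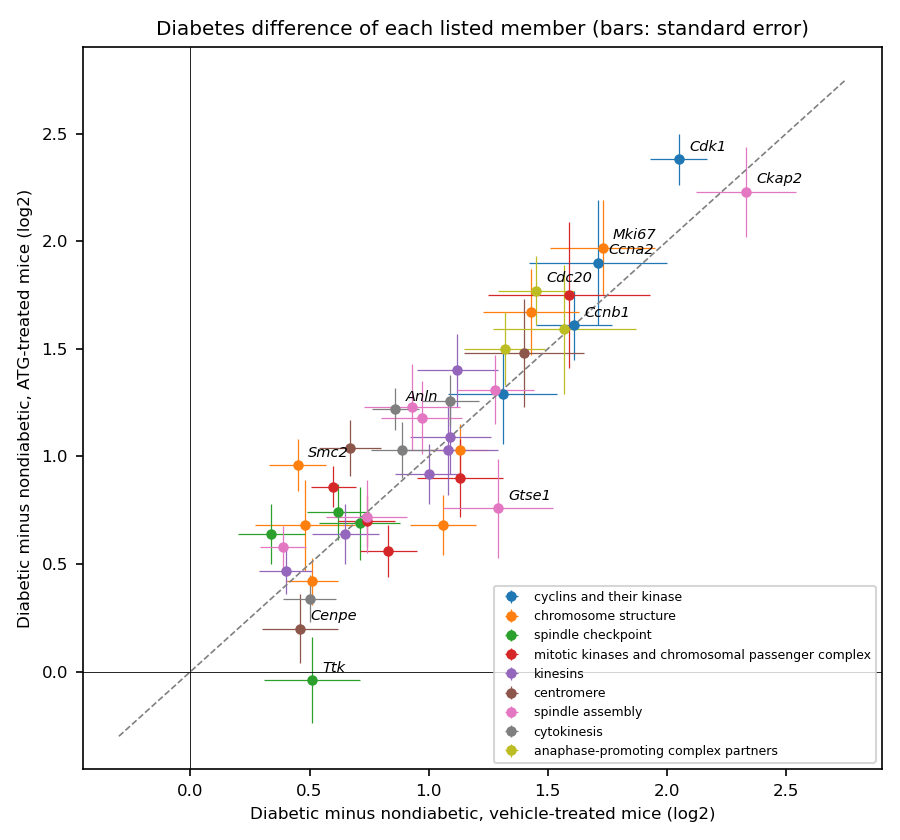
Log2 difference between diabetic and nondiabetic mice of each of the 43 members, with vehicle on the horizontal axis and with ATG on the vertical axis; bars are standard errors, colours are roles and the dashed line marks equality. Most members lie near the line, Cdk1 and Ckap2 at its top, and Ttk at -0.04 on the vertical axis is the only member below 0.

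Within the diabetic groups most members ranked the mice alike. Diabetic vehicle mouse 2 had the highest value of its group for 30 of 43 members, which held for 38.5% of all genes, and mouse 1 the lowest for 30, against 18.8%. In the diabetic ATG group, mouse 2 was highest for 32 members, against 32.9% of all genes, and mouse 1 lowest for 31, against 39.9%. Nondiabetic vehicle mouse 1 was highest and mouse 2 lowest for 27 members each, against 38.4% and 32.9% of all genes, and the nondiabetic ATG mice 1 to 3 were highest for 16, 7 and 20 members. The mean of the 24 listed leukocyte markers was 9.11, 8.90 and 8.61 in diabetic vehicle mice 1 to 3 and 8.88, 8.07 and 8.44 in diabetic ATG mice 1 to 3. Tubule markers averaged 11.37, 11.72 and 10.48 in the first of these groups and 11.59, 11.76 and 11.14 in the second.

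Markers of some kidney cell types differed between the same groups. Called higher and lower were 10.2% and 8.63% of all genes with vehicle, and 25.9% and 20.8% with ATG. With vehicle, 25 of 40 tubule markers were called lower and 0 higher (median -1.34), and their summed linear value was 0.561 to 0.698 M in nondiabetic and 0.141 to 0.384 M in diabetic mice. Endothelial markers were called higher for 9 of 20 (median 0.43, sums of 0.297 to 0.326 M against 0.364 to 0.423 M) and leukocyte markers for 8 of 24 (median 0.52, sums of 0.0124 to 0.0186 M against 0.0173 to 0.0252 M). Of 20 podocyte markers 0 were called (median 0.15, sums of 0.745 to 0.816 M against 0.750 to 1.24 M), of 18 mesangial markers 2 were higher and 2 lower (median -0.23, sums of 0.0653 to 0.0856 M against 0.0645 to 0.0763 M), and of 7 listed erythroid markers 3 were higher (median 1.6, sums of 0.00155 to 0.00172 M against 0.00145 to 0.00202 M). With ATG, 37 of 40 tubule markers were lower (median -1.78), and 19 of 20 endothelial (median 1.05), 14 of 18 mesangial (median 0.73), 7 of 20 podocyte (median 0.65) and 9 of 24 leukocyte markers (median 0.49) were higher. Of the erythroid markers, 1 was higher and 1 lower there (median 1.04). The podocyte and leukocyte counts with ATG lie nearer to the share of all genes than the endothelial and mesangial ones. With vehicle, the mesangial counts are close to that share. The sums in nondiabetic ATG and diabetic ATG mice were 0.827 to 1.17 M and 0.273 to 0.326 M for tubule, 0.150 to 0.286 M and 0.397 to 0.463 M for endothelial and 0.0333 to 0.0442 M and 0.0713 to 0.0799 M for mesangial markers. They were 0.361 to 0.818 M and 0.822 to 0.920 M for podocyte, 0.00948 to 0.0130 M and 0.0112 to 0.0202 M for leukocyte and 0.00160 to 0.00273 M and 0.00119 to 0.00151 M for erythroid markers. No defining marker was at 0 in any group.

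When the mean level of the tubule markers entered the fit as a covariate, 11 members were called with vehicle, where 1.72% of all genes were, and 4 with ATG, where 0.39% were, while the median differences were 1.14 and 1.12. Those 4 were Cdk1, Ccnb1, Cdc20 and Gtse1, with differences of 2.35, 2.16, 2.06 and 1.86, and for Gtse1 this is far above the 0.76 without the covariate. Among the 38 members that are not listed through diabetic mice only, which leaves out Ccnb1, 7 were called with vehicle and 3 with ATG. The mean of the tubule markers was 12.22 to 13.59 in nondiabetic and 10.48 to 11.76 in diabetic mice. These ranges did not overlap, so this fit cannot tell the tubule marker level apart from diabetes. When the leukocyte markers were used in the same way, 23 members were called with vehicle (1.31% of all genes) and 39 with ATG (37.3% of all genes), with medians of 1.12 and 1.06, and of the 38 members 19 and 34 were called.

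**Figure D4:**
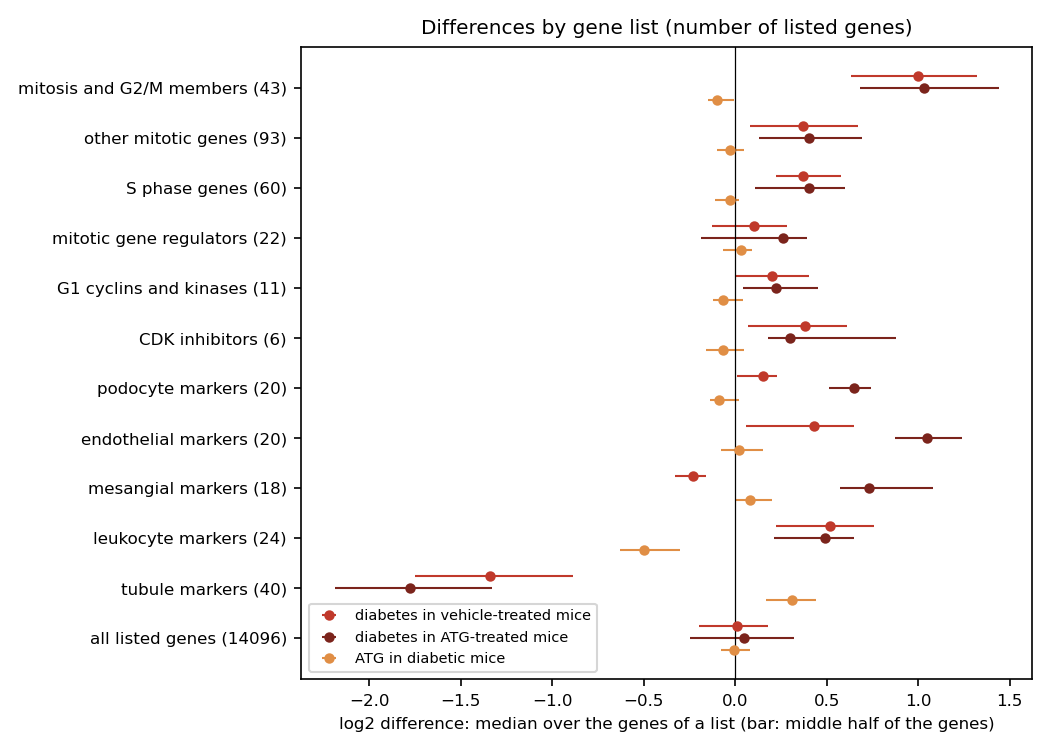
Median log2 difference over the genes of each list (points) with the range of the middle 50% of its genes (bars), for diabetes in vehicle-treated mice, diabetes in ATG-treated mice and ATG in diabetic mice; the number of listed genes is in brackets. The mitosis and G2/M members lie at 1.00 and 1.03 for diabetes and at -0.10 for ATG, tubule markers lie at -1.34 and -1.78 for diabetes, and all listed genes lie near 0.

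In diabetic mice, the differences of the members with ATG ran from -0.39 for Ncapg to 0.19 for Ube2c. No member was called between diabetic ATG and diabetic vehicle mice, and none of the 14096 genes was either (0.0%; limma, and 0 members with limma-voom). Without adjustment, 1 member and 636 genes had a p under 0.05. That member was Ncapg, at -0.39 ± 0.14 (SE, adjusted p = 1.0 from limma). Its 3 diabetic ATG mice lay below its 3 diabetic vehicle mice, as for 5 of the 43 members and 6.32% of all genes, while 0 members and 3.85% of all genes had the groups apart in the other direction. The median difference of the members was -0.10, against -0.01 over all genes, with 33 members below 0 and 10 above.

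For Cdk1 the difference with ATG in diabetic mice was -0.14 with a 95% interval of -0.41 to 0.13, for Ccnb1 -0.02 (-0.37 to 0.34), for Top2a -0.02 (-0.45 to 0.41) and for Mki67 -0.18 (-0.68 to 0.31). The diabetes differences with vehicle, given above, use the same diabetic vehicle mice and are among the values with which the list was proposed. The lowest bound was -1.01 for Aurkb and the highest 0.64 for Ccna2. In the same comparison the median of the leukocyte markers was -0.50 and that of the tubule markers 0.31, with 0 called in each list.

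**Figure D5:**
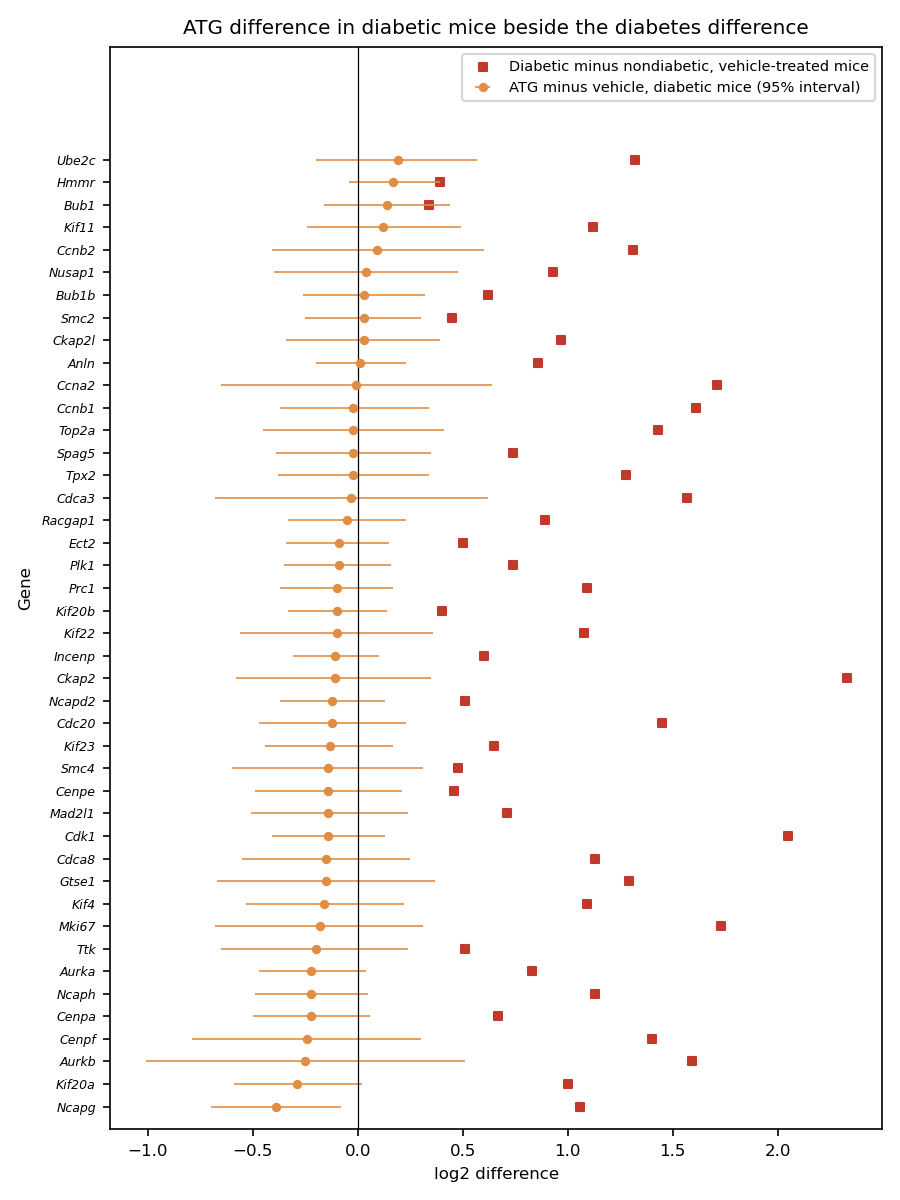
Log2 difference of diabetic ATG minus diabetic vehicle mice for each of the 43 members (orange points, bars for the 95% interval), with the difference between diabetic and nondiabetic vehicle mice (red squares) on the same axis. The orange points lie between -0.39 for Ncapg and 0.19 for Ube2c, and the bar of Ncapg alone does not reach 0.

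In nondiabetic mice, 2 members were called lower with ATG, where 4.51% of all genes were called lower and 5.22% in either direction. Cenpa fell by 0.58 ± 0.13 (SE, adjusted p = 0.0312 from limma) and Incenp by 0.36 ± 0.094 (SE, adjusted p = 0.0499 from limma), each with all 3 nondiabetic ATG mice below the 3 nondiabetic vehicle mice, as for 8 of the 43 members and 20.0% of all genes. The intervals of Cdk1 (-0.74 to -0.20), Cdc20 (-0.79 to -0.09), Smc2 (-0.75 to -0.20) and Anln (-0.57 to -0.13) also lay below 0, with adjusted p of 0.0506, 0.106, 0.0506 and 0.0614 in limma. The median over the members was -0.13. Endothelial markers were called lower for 10 of 20 (median -0.65) and mesangial markers for 13 of 18 (median -0.94) in this comparison, podocyte markers had a median of -0.58 and tubule markers of 0.77, and the part of these in the members' values was not tested. Both calls were lost with a tubule or leukocyte covariate, where 0.284% and 1.94% of all genes were called and the members' median was -0.14 in each. The count of called members ranged from 0 to 6 when 1 mouse was left out, being 0 without nondiabetic ATG mouse 1 or 2, nondiabetic vehicle mouse 1 or 3, or diabetic ATG mouse 2 or 3, where 0.426% to 2.82% of all genes were called. It was 1 without nondiabetic vehicle mouse 2 or mouse 1 of either diabetic group (2.71% to 3.19% of all genes), 4 without diabetic vehicle mouse 3, where 10.1% of all genes were called, and 6 without nondiabetic ATG mouse 3, where 25.0% were.

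A difference between the ATG effects of diabetic and nondiabetic mice was called for 0 members, against 0.546% of all genes, 0.539% higher and 0.00709% lower (limma). At an unadjusted p under 0.05 were Smc2, at 0.51 ± 0.18 (SE, adjusted p = 0.27), and Anln, at 0.36 ± 0.14 (SE, adjusted p = 0.309), both in limma. Their ATG differences were -0.48 and -0.35 in nondiabetic mice and 0.03 and 0.01 in diabetic mice. Without nondiabetic ATG mouse 3, 1 member, Smc2, was called, and so were 5.46% of all genes. The median over the members was 0.07.

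Of the other mitotic genes, 93 listed of 113 written down, 81 had a diabetes difference above 0 with vehicle and 82 with ATG. Not called were 47 and 36 of them. Their medians were lower than those of the members, a gap that was not tested. With vehicle, 46 were called higher and 0 lower, and with ATG 52 higher and 5 lower, against 10.2% of all genes higher with vehicle and 25.9% higher and 20.8% lower with ATG, with medians of 0.37 and 0.40. These counts include genes under 100 in all 6 nondiabetic mice, among them Pbk, Fam64a, Ndc80 and Kifc1. A count without such genes is not given here, and the counts describe the list. Psrc1, a spindle protein, also under 100 in all 6 nondiabetic mice, differed by 2.13 ± 0.2 (SE) and 2.16 ± 0.2 (SE), from means of 5.76 ± 0.33 (SD, n = 3) in nondiabetic vehicle mice to 7.89 ± 0.24 (SD, n = 3) in diabetic vehicle mice (limma). Iqgap3, a scaffold of the cytoskeleton, Nek2, a centrosome kinase, Tacc3, a spindle protein, and Kpna2, an importin, differed by 1.09, 0.83, 0.68 and 0.57 with vehicle. The 5 lower in the ATG-treated diabetic mice, named after their values were seen, were Trip13, a checkpoint ATPase, at -0.78, Pttg1, which encodes securin, at -0.36, Depdc1b at -0.84, Poc1a, a centriole protein, at -0.55 and Bod1 at -0.36. In diabetic mice ATG changed 0 of the 93 (limma), and in nondiabetic mice 1, Poc1a, at 0.67 (adjusted p = 0.0185).

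Of 60 listed S phase genes, 31 were called higher and 1 lower with vehicle and 33 higher and 2 lower with ATG, with medians of 0.37 and 0.40, where 10.2% and 8.63% of all genes were called higher and lower with vehicle and 25.9% and 20.8% with ATG. Pcna, the sliding clamp of DNA replication, rose by 0.46 ± 0.063 (SE, adjusted p = 0.00269) and 0.61 ± 0.063 (SE, adjusted p = 0.000143) (limma), and Mcm5, a subunit of the replicative helicase, by 0.78 ± 0.074 (SE) and 0.91 ± 0.074 (SE). Among 11 G1 cyclins and kinases, Ccnd1, which encodes cyclin D1, rose by 0.56 ± 0.11 (SE, adjusted p = 0.00824) and 0.70 ± 0.11 (SE, adjusted p = 0.000737) (limma), as 1 of 4 called higher with vehicle and 6 with ATG, against the same shares of all genes.

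Foxm1, which drives transcription in G2, rose by 0.86 ± 0.19 (SE, adjusted p = 0.0142) with vehicle and 1.16 ± 0.19 (SE, adjusted p = 0.00114) with ATG (limma), while Mybl2, which encodes B-Myb, differed by 0.38 ± 0.19 (SE, adjusted p = 0.173) and 0.47 ± 0.19 (SE, adjusted p = 0.0584), neither under 0.05. E2f1, an activator of S phase genes, differed by 0.30 ± 0.22 (SE, adjusted p = 0.361) and 0.60 ± 0.22 (SE, adjusted p = 0.0448). Of the 22 regulators listed, 4 were called higher and 2 lower with vehicle, against 10.2% and 8.63% of all genes, so the lower count is close to that share. With ATG, 8 were higher and 3 lower, where 25.9% of all genes were higher and 20.8% lower, so the ATG share is close to that of all genes. Rbl2, the p130 pocket protein that holds cell cycle genes silent in resting cells, fell by 0.43 (adjusted p = 0.00414) and by 0.47 (adjusted p = 0.000499, limma). Nfya, a subunit of the NF-Y complex that binds CCAAT, was lower with ATG in nondiabetic mice, at -0.38 (adjusted p = 0.0251, limma).

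Some inhibitors of cyclin-dependent kinases were called higher. Cdkn1a, which encodes p21 and arrests the cycle, rose from 11.23 ± 0.45 (SD, n = 3) to 12.97 ± 0.42 (SD, n = 3) with vehicle, by 1.74 ± 0.26 (SE, adjusted p = 0.00375), and by 2.11 ± 0.26 (SE, adjusted p = 0.000288) with ATG (limma). Cdkn1c, which encodes the p57 of resting podocytes, differed by 0.62 ± 0.22 (SE, adjusted p = 0.0707) with vehicle and 1.05 ± 0.22 (SE, adjusted p = 0.00361) with ATG (limma). Cdkn2c, which encodes p18, rose by 0.56 and 0.37. Of the 6 inhibitors listed, 2 were called higher with vehicle and 3 with ATG, and 0 lower in either, against 10.2% of all genes higher with vehicle and 25.9% with ATG.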

How the data were processed

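Glomerular mRNA of 12 mice was analysed from 1 deposited table per mouse. Per the labels, reads were mapped to mm10, and limma is named among the tools; the aligner, counter and use of strand are not given in the sources used here. The authors deposited log2 values, which on the linear scale are whole multiples of 1 step per library (within 0.02 reads for at least 83.7% of values under 2000 reads) and which include only genes reaching 100 in some mouse. Groups follow the labelled condition, and replicates are separate libraries.

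The members, their 9 roles, the other lists and the rule for the genes given per mouse were chosen with earlier results of these data known. The rule took from each role the 2 members with the lowest p for diabetes with vehicle, and Cdk1, Ccnb1, Top2a, Mki67, Aurkb, Plk1 and Cdc20. It added members called in a contrast other than the diabetes comparisons, and the largest and smallest difference in each contrast. Up to 5 genes per other list were named by p. The log2 values were fitted with limma 3.58.1 (R 4.3.3) with a mean-variance trend, all 12 mice in 1 fit and 5 contrasts, and p-values were adjusted by Benjamini-Hochberg over 14096 genes. A gene was called at an adjusted p under 0.05. Log2 differences carry no pseudocount. The fit was tested on simulated data. Some genes are not reported here by name. Motifs were searched on both strands in RefSeq promoter windows. Alternatives were another threshold, filters, scaling, limma-voom on recovered reads, marker covariates, the replicate block, fewer groups and mice left out. Tables were handled with pandas 2.3.3 and figures drawn with matplotlib 3.10.9 in Python 3.11.15.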

Additional observations from a re-analysis of the deposited data

How the results depend on the processing

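In 22 alternative fits, none of the 43 members changed sign in a comparison in which it had been called. Diabetes with vehicle gave 23 called members with the leukocyte covariate and 11 with the tubule covariate, whose median difference was 1.14, and diabetes with ATG gave 4 with the tubule covariate. The cause was not tested. For ATG in nondiabetic mice, the 2 calls (5.22% of all genes) became 5 at an adjusted p under 0.1 (15.2%), 4 with a mean of at least 100 (5.72%), 1 with limma-voom (5.21%) or median-ratio scaling (3.82%), and 0 with the leukocyte (1.94%) or tubule covariate (0.284%), with only the groups compared (0.0%), or without the nondiabetic mice 1, whose labels carry no number (0.0568%). With 1 mouse left out, counts of called members ran from 29 to 40 for diabetes with vehicle (29 without nondiabetic vehicle mouse 2), where 5.68% to 23.8% of all genes were called, 38 to 41 for diabetes with ATG (33.8% to 52.9%), 0 to 0 for ATG given to diabetic and 0 to 6 for ATG given to nondiabetic mice, and 0 to 1 for the difference of the ATG effects. The medians ran from 0.92 to 1.08, 0.99 to 1.06, -0.14 to -0.04, -0.19 to -0.07 and -0.01 to 0.19 in that order. A group left with 2 mice takes its spread from the pooled fit.

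The replicate numbers were used as a block, although same-numbered libraries of different groups had deviations that correlated between -0.59 and 0.339 over 13 pairs, above 0.1 in 5, so they share only a number. With the replicate block, 36 members were called for diabetes with vehicle (9.75% of all genes), 40 with ATG (31.4%), 0 for ATG given to diabetic (0.0%) and 3 for ATG given to nondiabetic mice (6.71%), and 0 for the difference of the effects. Fits with only the groups compared give no difference of the ATG effects. Members had from 20 reads, and read sampling limits Aurkb and Ckap2 in nondiabetic mice most.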
